A study of Mus musculus with 20 samples.

Results

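The genes described here are 10 genes for acute-phase and antimicrobial proteins of the gut lining, taken by name from a table of 19887 genes measured in the cecum. They are the serum amyloid A genes Saa1, Saa2, and Saa3, the C-type lectins Reg3b and Reg3g, the goblet cell product Retnlb, the angiogenin Ang4, the iron-chelator carrier Lcn2, and the calprotectin subunits S100a8 and S100a9. All 10 were in the table, and 8 had enough reads to be tested, while S100a8 and S100a9 did not. RNASeq was performed on the cecum of 20 C57BL/6 mice that all ate the Total Western Diet (TWD), a rodent diet with the nutrient profile of a Western human diet, for 6 weeks. For 3 more weeks 5 mice stayed on TWD alone (0% RPS), and 5 mice each received TWD with 2, 5, or 10% raw potato starch (RPS), a starch that resists digestion in the small intestine. The question of the design was how cecal gene expression changes with the amount of RPS. Mice are called by diet and by a number from 1 to 5, and each comparison with 0% RPS uses the same 5 control mice.

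Serum amyloid A proteins are lipid-binding proteins that the liver releases into blood during an acute-phase response and that the gut epithelium also makes. Reg3b and Reg3g are secreted lectins that bind bacterial cell walls, RELMβ (the product of Retnlb) is a goblet cell protein that acts on bacteria and nematodes, and Ang4 is a ribonuclease with antibacterial activity. Lipocalin 2 binds bacterial siderophores, and the 2 S100 proteins form calprotectin, a metal-chelating complex stored in neutrophils. In the gut, production of several of these proteins is known to depend on microbial colonization and on the cytokine IL-22.

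The 3 serum amyloid genes lie in a cluster on chromosome 7 that also holds Saa4, and on GRCm39 they span chr7:46389916-46392547 on the minus strand for Saa1 (ENSMUSG00000074115), chr7:46401214-46403737 on the plus strand for Saa2 (ENSMUSG00000057465), and chr7:46361422-46365576 on the minus strand for Saa3 (ENSMUSG00000040026). The coding sequences of Saa1 and Saa2 in GENCODE are both 366 bases long, identical at 348 of them (95.1%), and differ by 18 substitutions. Within the coding sequence, reads of 50 bases can tell both genes apart only where they cross such a base. The stretch with most of the differences, bases 50 to 149 counted from the start codon, is therefore shown with its 11 differing bases in capitals.
Saa1: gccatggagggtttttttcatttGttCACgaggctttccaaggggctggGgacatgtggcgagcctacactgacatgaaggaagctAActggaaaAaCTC
Saa2: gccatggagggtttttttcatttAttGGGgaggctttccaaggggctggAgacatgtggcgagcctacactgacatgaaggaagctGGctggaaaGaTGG
The longest identical run within the coding sequence is 73 bases. In the Saa1 transcript, 83 windows of 50 bases (11.7% of all) were also present in a transcript of another gene, 74 of them in Saa2. For Saa2, 77 of 603 windows (12.8%) were shared with Saa1, whereas Saa3 shared 0.939% of its windows. The coding sequence of Saa3 is 75.9% identical to that of Saa1. How reads matching several genes were counted is not given in the sources used here, and Saa1 had 114933 counts over all mice against 359 for Saa2. Whether reads from the shared windows of Saa1 make up much of the Saa2 count was not tested, and the Saa2 values are uncertain.

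Of the 10 genes, 9 had a promoter window in the RefSeq table for GRCm38.p6, from 250 bases before to 50 bases after the start; Retnlb had none. The windows of the serum amyloid genes and of Ang4 are shown because Saa1 and Ang4 gave the largest increases over 0% RPS among the 10 genes. Capitals mark the matches to motif letters searched on both strands. These were TTGCNNAA for C/EBP factors (present in 10.8% of 27025 promoter windows), TTCNNNGAA for STAT factors (8.47%), and, for NF-kB, GGG and TTTCC with any 2 bases between them (1.62%). The windows cover chr7:46742931-46743230 on the minus strand, chr7:46751583-46751882 on the plus strand, chr7:46715627-46715926 on the minus strand, and chr14:51773541-51773840 on the minus strand, in that order.
Saa1: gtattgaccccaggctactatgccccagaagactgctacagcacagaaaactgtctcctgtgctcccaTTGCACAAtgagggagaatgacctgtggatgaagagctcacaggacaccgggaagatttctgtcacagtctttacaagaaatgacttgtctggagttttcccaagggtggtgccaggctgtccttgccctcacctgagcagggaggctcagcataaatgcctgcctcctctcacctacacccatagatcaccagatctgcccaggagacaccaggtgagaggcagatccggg
Saa2: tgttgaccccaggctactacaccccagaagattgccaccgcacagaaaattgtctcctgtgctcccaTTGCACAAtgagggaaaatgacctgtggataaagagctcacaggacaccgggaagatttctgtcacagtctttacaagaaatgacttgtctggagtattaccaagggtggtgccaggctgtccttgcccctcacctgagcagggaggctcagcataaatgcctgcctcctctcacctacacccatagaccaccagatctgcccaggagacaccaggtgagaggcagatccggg
Saa3: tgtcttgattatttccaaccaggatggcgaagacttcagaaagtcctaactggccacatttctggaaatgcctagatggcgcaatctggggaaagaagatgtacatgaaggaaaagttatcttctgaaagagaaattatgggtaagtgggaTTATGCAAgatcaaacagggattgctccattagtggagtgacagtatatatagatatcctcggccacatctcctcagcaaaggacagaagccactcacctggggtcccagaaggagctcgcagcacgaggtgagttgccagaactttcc
Ang4: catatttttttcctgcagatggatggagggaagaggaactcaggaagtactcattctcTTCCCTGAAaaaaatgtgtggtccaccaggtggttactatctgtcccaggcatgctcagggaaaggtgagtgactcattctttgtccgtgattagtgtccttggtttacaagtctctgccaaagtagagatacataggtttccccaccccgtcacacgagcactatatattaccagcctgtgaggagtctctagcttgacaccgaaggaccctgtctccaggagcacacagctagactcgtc
The C/EBP letters began at -182 in Saa1, -183 in Saa2, and -99 in Saa3, where the match was on the reverse strand. The windows of Saa1 and Saa2 were 95.3% identical, and those of Saa1 and Saa3 50.9%. The STAT letters were found in Ang4 at -192 and in Reg3b at -129, and the C/EBP letters also in Lcn2 and S100a9. No window of the 9 held the NF-kB letters in this exact form, and other forms of that motif were not searched. These matches describe the letters in the windows only.

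Total counts per mouse were between 14967798 and 42687283, and a floor of 3 counts stood at 0.0698 to 0.190 CPM (counts scaled to library size). The libraries carried the markers of large intestinal epithelium at high level, with Car1, a carbonic anhydrase of colonocytes, at a mean of 21146 CPM and Muc2, the goblet cell mucin, at 1987 CPM. Paneth cell defensins were at or near 0, as Defa17, Defa20, and Defa21 had no count in any mouse. Compared per kilobase of the canonical transcript, Retnlb had the highest median of the 10 genes over all mice, at 238.6 CPM per kb, followed by Saa1 at 221.7, Saa3 at 60.6, and Ang4 at 46.5. The next were Reg3g at 3.08 CPM per kb, Lcn2 at 1.78, Reg3b at 1.21, and Saa2 at 0.827, and S100a9 and S100a8 were lowest at 0.0760 and 0.0528. The ranges over mice of each pair of neighbours in this order overlapped, as for Retnlb (112.0 to 406.7 CPM per kb) and Saa1 (75.4 to 557.7). The order of the means differed between diets. Mean Retnlb was above mean Saa1 on 0% RPS (301 ± 115 and 111 ± 49.4 CPM per kb) and below it on 10% RPS (204 ± 49.0 and 337 ± 148; SD, n = 5 each).

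Of the 8 tested genes, 1 (Saa1) was past the threshold, and it rose with 5% RPS, where 0.195% of all tested genes passed, and with 10% RPS, where 1.04% passed. Its CPM in the mice on 0% RPS was 150, 73.6, 57.1, 76.1, and 64, and on 2% RPS it was 121, 106, 164, 148, and 230. On 5% RPS it was 189, 316, 172, 279, and 337, and on 10% RPS 259, 422, 289, 134, and 173. All 5 mice on 5% RPS were above all 5 mice on 0% RPS, as for 1.53% of all genes, while on 10% RPS mouse 4 was below mouse 1 of 0% RPS. Mean CPM was 84.1 ± 37.4 on 0%, 154 ± 48.1 on 2%, 259 ± 74.4 on 5%, and 255 ± 112 on 10% RPS (SD, n = 5 each). With edgeR's quasi-likelihood test and Benjamini-Hochberg adjustment over 15348 genes, the log2 fold change was 1.60 (SE 0.32, adjusted p = 0.0251) with 10% RPS, a 3.04-fold difference with a 95% interval of 1.90 to 4.85. With 5% RPS it was 1.62 (SE 0.32, edgeR adjusted p = 0.0426), or 3.08-fold with an interval of 1.93 to 4.92. Saa1 was 0.87 higher on the log2 scale at 2% RPS (SE 0.32, edgeR unadjusted p = 0.0131, adjusted p = 0.815), which did not pass. The slope over the 4 diets was 0.15 log2 units per 1% RPS (edgeR adjusted p = 0.0599).

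With edgeR the Saa1 call was near the threshold of an adjusted p of at most 0.05 with a fold change of at least 1.5, while DESeq2 gave an adjusted p of 0.00071 at 10% and 0.00126 at 5% RPS. Without mouse 3, 4, or 5 of 0% RPS or mouse 1, 2, or 3 of 10% RPS the edgeR adjusted p at 10% RPS was 0.0517 to 0.0819. At 5% RPS it exceeded the threshold in 11 of the 20 fits that left out 1 mouse, and reached 0.136 without mouse 5 of 5% RPS. Over all fits with 1 mouse left out the log2 fold change of Saa1 was 1.35 to 1.92 at 10% and 1.51 to 1.93 at 5% RPS, and the edgeR adjusted p was 0.0073 to 0.0819 and 0.0227 to 0.136. Of the 8 smooth muscle markers tested, 2 rose past the threshold with 10% RPS (1.04% of all genes passed) and 1 with 5% RPS (0.195%). At an unadjusted edgeR p under 0.05, 6 of the 8 were higher with 10% RPS (19.5% of all genes had such a p in either direction) and 8 of the 8 with 5% RPS (13.3%), with a median log2 fold change of 0.69 and 0.84. The summed level of the list overlapped between diets and was 2909.8 to 6526.5 CPM on 0%, 4872.8 to 10919.3 on 5%, and 4672.2 to 7799.9 on 10% RPS. The part of tissue composition in the Saa1 result was not tested. In whole cecum a change in the number of cells of a type and a change in RNA per cell cannot be told apart.

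**Figure D1:**
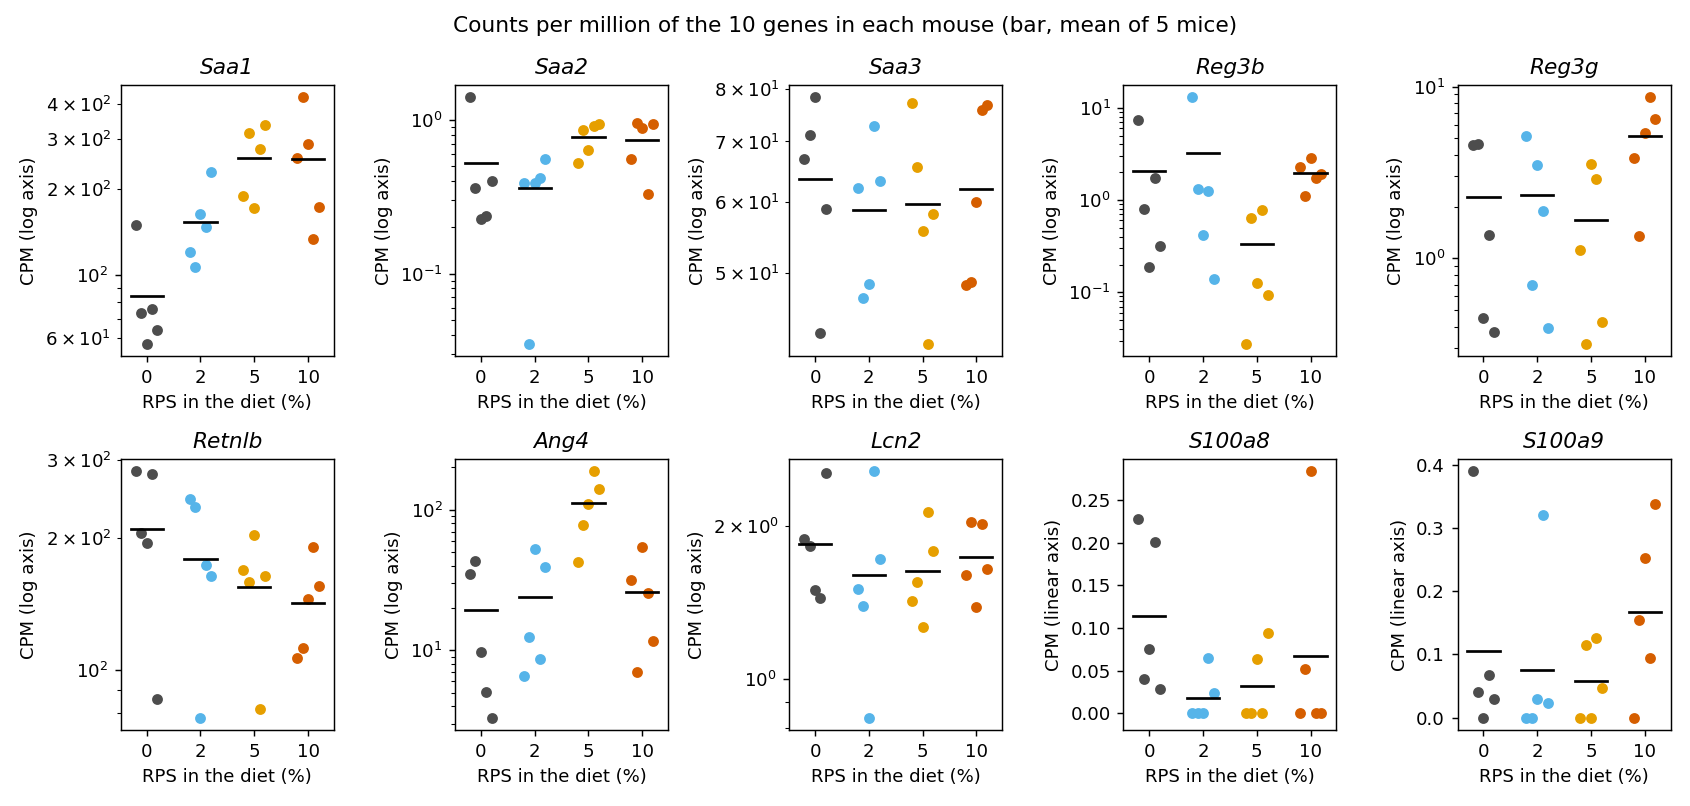
Each point is 1 mouse and each bar the mean of the 5 mice on a diet, with RPS in the diet (%) on the x axis and CPM on the y axis (log axis, linear for S100a8 and S100a9). All Saa1 points at 5% RPS lie above those at 0% RPS, Ang4 is highest at 5% RPS with a mean of 112 CPM, and Saa3 and Lcn2 stay within narrow ranges.

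Saa2, the close copy of Saa1, was present at 1 to 43 counts per mouse. Its CPM was 1.40, 0.358, 0.225, 0.235, and 0.402 on 0% RPS and 0.558, 0.955, 0.885, 0.330, and 0.938 on 10% RPS. Mouse 1 of 0% RPS, which had the highest Saa1 of its diet, had the highest Saa2 of all mice, and both diets overlapped. The log2 fold change was 0.49 (SE 0.49, edgeR adjusted p = 0.626) with 10% RPS, 0.55 (SE 0.49, adjusted p = 0.706) with 5%, and -0.53 with 2% RPS, where mouse 2 had 1 count. Without mouse 1 of 0% RPS it was 1.26 with 10%, 1.33 with 5%, and 0.24 with 2% RPS, and neither the 10% nor the 5% value passed. The Saa2 share of the counts of both genes had a median of 0.484% on 0%, 0.242% on 2%, 0.279% on 5%, and 0.246% on 10% RPS, so nearly all of their counts were assigned to Saa1. Summing both genes gave a slope of 0.15 log2 units per 1% RPS (edgeR adjusted p = 0.0603), close to that of Saa1 alone.

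Saa3, a serum amyloid gene that macrophages and gut epithelium express in mice, did not pass in any comparison. Its mean was 63.6 ± 13.6 CPM on 0%, 58.7 ± 10.9 on 2%, 59.7 ± 13.2 on 5%, and 62.0 ± 13.9 on 10% RPS (SD, n = 5 each). Over all mice it was between 41.6 and 78.4 CPM, and every diet overlapped the others. The log2 fold change with 10% RPS was -0.04 with a 95% interval of -0.42 to 0.34 (edgeR adjusted p = 0.937), and the interval of Saa1 in the same comparison began at 0.93.

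Reg3b and Reg3g (chr6:78347640-78350455 and chr6:78443246-78445859 on GRCm39) varied widely between mice on the same diet. Reg3b was at 7.32, 0.796, 0.188, 1.71, and 0.316 CPM on 0% RPS and at 13, 1.32, 0.419, 1.25, and 0.140 on 2% RPS. On 5% RPS it was at 0.0274, 0.633, 0.127, 0.787, and 0.0942 CPM, where mice 1, 3, and 5 had only 1 to 2 counts, and on 10% RPS at 2.30, 1.11, 2.84, 1.74, and 1.91. Mice 1 of 0% and 2% RPS were the highest, and the mice on 0% RPS overlapped those of each other diet. The log2 fold change was -2.53 with 5% RPS (SE 1.16, edgeR unadjusted p = 0.0432, adjusted p = 0.355) and -0.07 with 10% RPS (SE 1.02, edgeR adjusted p = 0.984). Without mouse 1 of 0% RPS it was -1.08 with 5% RPS and 1.39 with 10% RPS.

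Reg3g was at 4.56, 4.66, 0.450, 1.38, and 0.373 CPM on 0% RPS and at 3.83, 1.34, 5.40, 8.67, and 6.45 on 10% RPS. The mean was 2.28 ± 2.16 CPM on 0%, 2.33 ± 2.00 on 2%, 1.66 ± 1.48 on 5%, and 5.14 ± 2.76 on 10% RPS (SD, n = 5 each). With 10% RPS 3 of the 5 mice were above every mouse on 0% RPS, and the log2 fold change of 1.17 had a 95% interval of -0.51 to 2.85 (edgeR adjusted p = 0.439).

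Retnlb (chr16:48637219-48639255) was lower on average at each higher RPS level but no comparison passed. The CPM was 283, 205, 194, 278, and 86.0 on 0% RPS, and 107, 112, 145, 190, and 155 on 10% RPS. Mouse 5 of 0% RPS was below every mouse on 10% RPS, so the diets overlapped. The mean was 209 ± 80.1, 179 ± 67.0, 155 ± 44.4, and 142 ± 34.1 CPM at 0, 2, 5, and 10% RPS (SD, n = 5 each), and the log2 fold change with 10% RPS was -0.56 (SE 0.32, edgeR adjusted p = 0.338). Of 12 goblet cell markers, 1 passed at 10% RPS (1.04% of all genes), and at an unadjusted edgeR p under 0.05 (19.5% of all genes) 7 were lower and 1 (Galnt12) was higher. Zg16, a lectin-like goblet cell protein that binds Gram-positive bacteria, fell by 0.84 on the log2 scale (edgeR adjusted p = 0.0251). The summed goblet markers were at 9322.9 to 12500.8 CPM on 0% and 7405.3 to 9028.3 on 10% RPS. The part of goblet cell content in the Retnlb values was not tested.

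Ang4 (chr14:51990721-52011053) was highest with 5% RPS. Its CPM was 34.7, 43.4, 9.72, 5.07, and 3.30 on 0% RPS and 6.57, 12.3, 52.2, 8.71, and 39.1 on 2% RPS. On 5% RPS it was 42.5, 78.2, 110, 189, and 141, and on 10% RPS 31.7, 7.02, 54.7, 25.4, and 11.6. Of the mice on 5% RPS, 4 were above every mouse on every other diet, and the fifth was just below mouse 2 of 0% RPS. The log2 fold change was 2.55 with 5% RPS, a 5.85-fold difference with a 95% interval of 1.87 to 18.3 (edgeR unadjusted p = 0.00453, adjusted p = 0.141), which did not pass, and 0.44 with 10% RPS (SE 0.75, edgeR adjusted p = 0.793). Of the Ang4 transcript's 666 windows of 50 bases, 31 (4.65%) were shared, 30 of them with Ang5. DESeq2 gave Ang4 an adjusted p of 0.0252 for 5% RPS.

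Lcn2 (chr2:32274645-32278264) ranged from 0.839 to 2.57 CPM over the 20 mice, and the 95% interval of its log2 fold change with 10% RPS was -0.59 to 0.42 (edgeR adjusted p = 0.885). S100a8 (chr3:90567118-90578128) and S100a9 (chr3:90599931-90603071) were too low for the test. S100a8 had 34 counts in all 20 mice together and 0 in 9 of them, and S100a9 had 62 counts and 0 in 6. By a two-sided exact permutation test over 252 assignments, S100a8 did not differ detectably between 10 and 0% RPS (p = 0.516), nor did S100a9 (p = 0.508), where the smallest possible p is 0.00794. Of 10 repeats for S100a8 that each left out 1 mouse, 9 gave the same result. Without mouse 3 of 10% RPS, which had 9 S100a8 counts, the exact permutation p of S100a8 was 0.0476. The remaining mice on 10% RPS had 0 to 2 counts. There were 17 neutrophil genes in the table, and 6 of them were high enough to be tested. Mpo, Camp, and Ctsg, which encode granule proteins, were at 0 in 13, 8, and 19 mice. Of the rest, Mmp8, Itgam, and Cxcr2 were at 0 in 16, 9, and 8 mice. Ltf and Trem1 were at 0 in 3 mice each and Retnlg in 1, and Csf3r, Padi4, and Clec4d had counts in every mouse. Ly6g, a surface marker of neutrophils, had a mean of 5.73 CPM on 0% and 0.866 on 10% RPS, and Cd177 had 3.97 and 9.71. The summed neutrophil list was 9.87 to 35.4 CPM on 0% and 14.3 to 26.9 on 10% RPS. The part of neutrophil content in the S100a8 and S100a9 values was not tested.

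**Figure D2:**
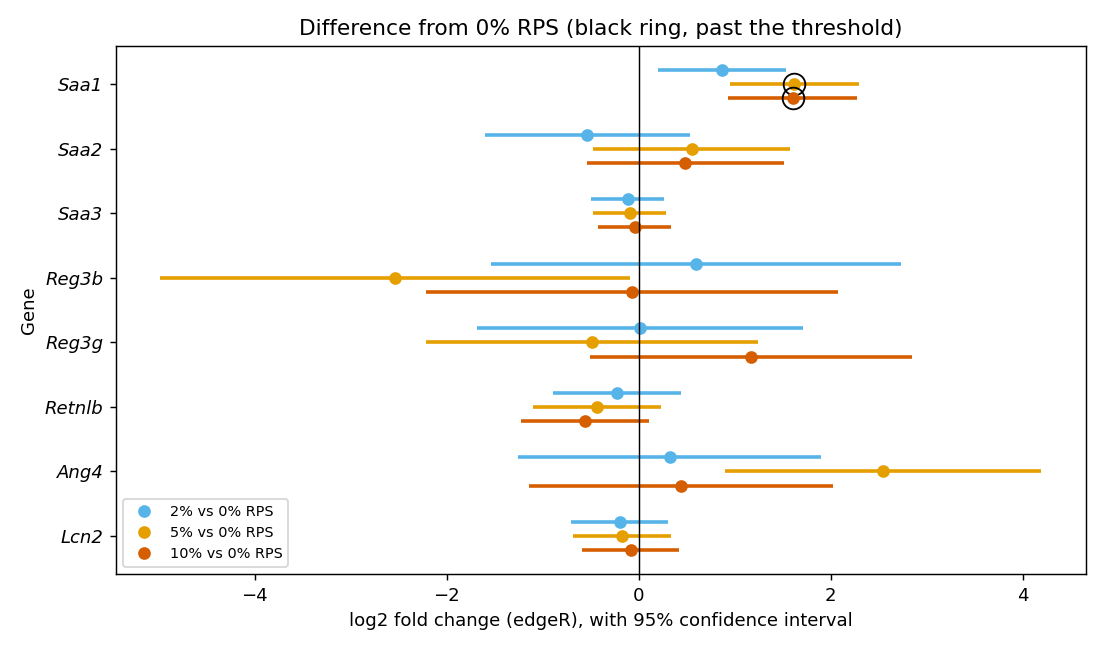
Points are edgeR log2 fold changes against 0% RPS on the x axis with 95% intervals, for the 8 tested genes, with black rings for those past the threshold. Only the Saa1 values at 5 and 10% RPS (1.62 and 1.60) are ringed, and the intervals of Reg3b, Reg3g, and Ang4 are the widest.

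With 10% RPS, 1 of the 8 genes passed, against 1.04% of the genes tested in that comparison, and with 5% RPS 1 of 8, against 0.195%. These shares depend on single mice, since the number of all genes past the threshold was 160 at 10% RPS but 14 to 344 with 1 mouse left out, and 30 at 5% RPS but 0 to 114. At an unadjusted edgeR p under 0.05 there were 1 of 8 at 10% RPS (19.5% of all genes) and 3 of 8 at 5% RPS (13.3%). With 2% RPS none of the 8 passed with edgeR, where 0% of all genes did, and 1 of the 8 had an unadjusted p under 0.05 against 5.77% of all genes. None passed the trend over RPS (1.11% of all genes) or the test of any difference among diets (0.0912%), in which 1 and 2 of the 8 had an unadjusted p under 0.05 (18.8% and 11.1% of all genes). Only Saa1 at 5% RPS had all 5 mice above all 5 on 0% RPS, which held for 1.53% of all genes, and at 10% RPS none of the 8 did (1.68% of all genes). The 8 genes had a median log2 fold change of 0.20 at 10%, -0.13 at 5%, and -0.05 at 2% RPS, and over all genes it was between -0.00182 and 0.00405.

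These genes differed between mice on the same diet more than most genes. The SD of log2 CPM within diets was 1.65 for Reg3b, 1.42 for Reg3g, and 1.28 for Ang4, where the median of all tested genes was 0.24 and the 90th percentile 0.59. Reg3b stood at the 99.5th percentile of all genes, Reg3g at 99.1, and Ang4 at 98.7. Saa2 (0.78), Retnlb (0.57), and Saa1 (0.52) came next, and Lcn2 (0.37) and Saa3 (0.32) were closest to the median. The genes were not matched for level, and low counts add to this SD. Over all mice Reg3b had 1015 counts, Reg3g 1540, Lcn2 1017, and Saa2 359, against 25636 for Ang4. The part of low counts in these percentiles was not tested. The highest mouse exceeded the lowest by 474-fold for Reg3b, where the lowest had 1 count, by 57.2-fold for Ang4, by 27.4-fold for Reg3g, and by 1.88-fold for Saa3. The spread of Reg3b was smallest with 10% RPS, an SD of 0.49 against 1.93 on 0% RPS, and this difference in spread was not tested.

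**Figure D3:**
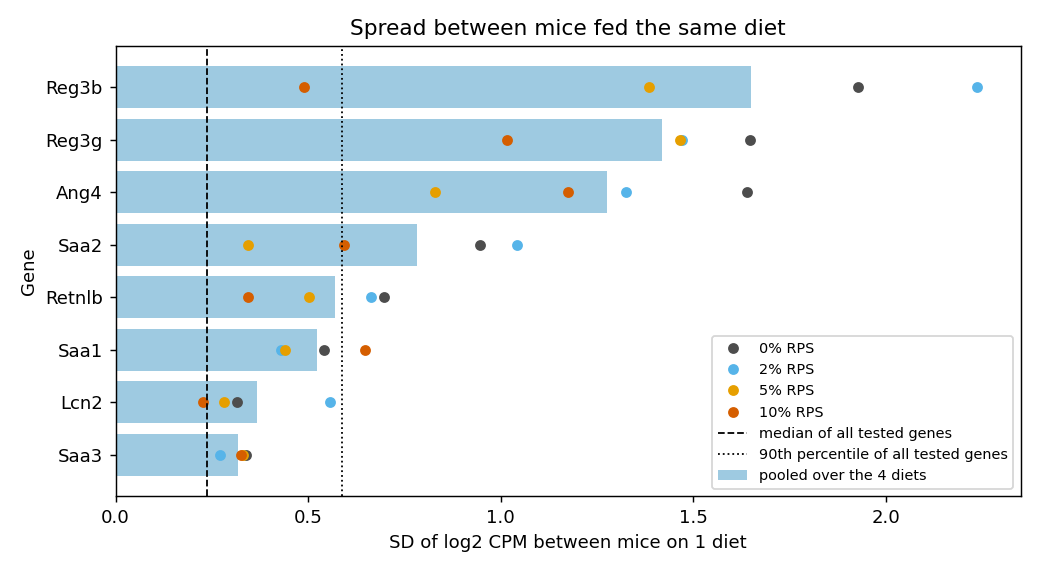
Bars are the within-diet SD of log2 CPM pooled over the 4 diets, points the SD of each diet, and lines the median (0.24) and 90th percentile (0.59) of all tested genes. Reg3b, Reg3g, Ang4, and Saa2 lie above the upper line, and Saa3 is the lowest.

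Gene pairs of like function were compared over the 20 mice, in 6 pairs, and p-values are from 100000 permutations with Benjamini-Hochberg adjustment. Saa1 and Saa2 rose and fell together across mice (r = 0.665, adjusted permutation p = 0.00654; rho = 0.791, adjusted permutation p = 0.00018). Within diets r was 0.726, and without the 2 mice farthest from the Saa1 median it was 0.661. Shared reads could add to this correlation, which was not tested. Reg3b and Reg3g also went together (r = 0.601, adjusted permutation p = 0.0163; rho = 0.680, adjusted permutation p = 0.00357), with r = 0.530 within diets and 0.598 without 2 mice. No relation was detected between Saa1 and Saa3 (r = -0.227, rho = -0.226, adjusted permutation p = 0.495 and 0.404), between Retnlb and Ang4 (r = -0.187, rho = -0.254, adjusted permutation p = 0.517 and 0.404), or between Reg3g and Lcn2 (r = -0.124, rho = -0.0632, adjusted permutation p = 0.609 and 0.791). S100a8 and S100a9 gave r = 0.404 and rho = 0.318 (adjusted permutation p = 0.153 and 0.341), and r was 0.0562 without 2 mice. Without mouse 5 of 10% RPS alone it was 0.533 (adjusted permutation p = 0.0366). The values of this pair rest on few reads, since S100a8 had 3 counts or fewer in 17 mice and S100a9 in 13.

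**Figure D4:**
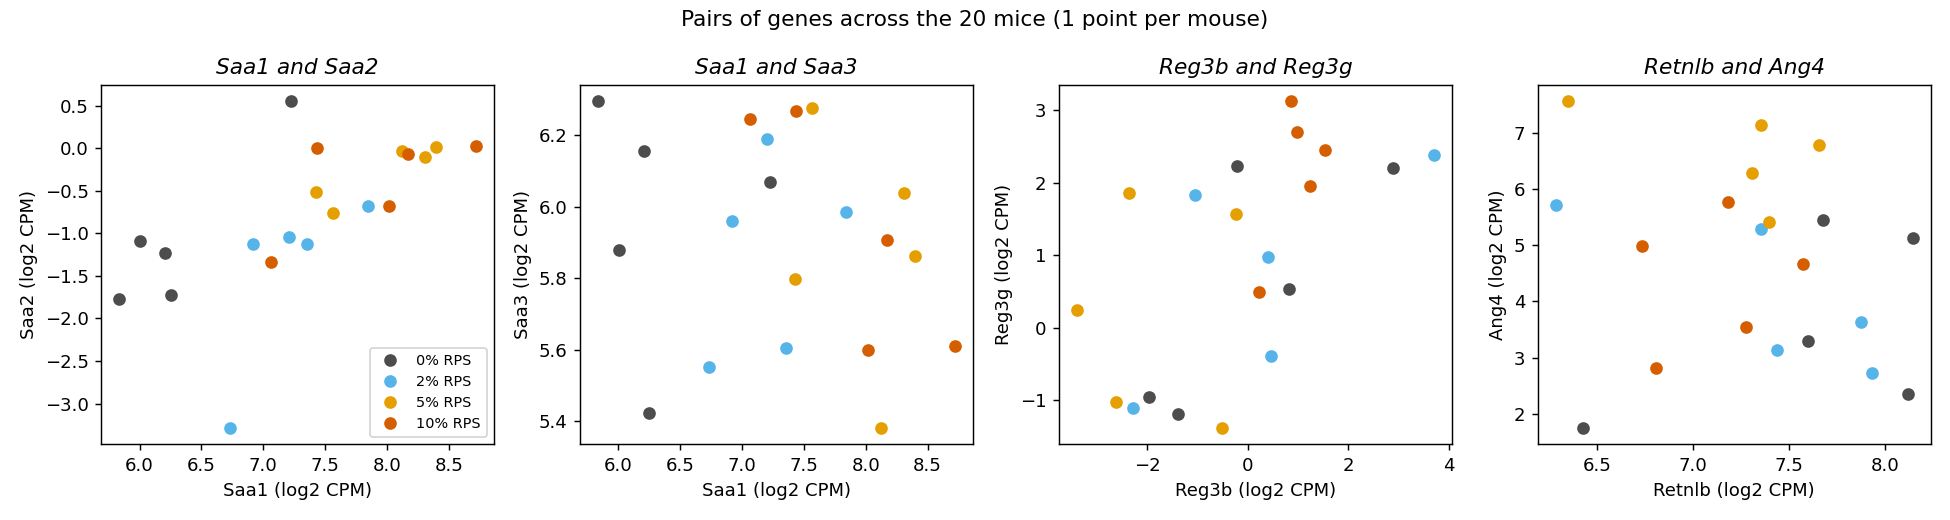
Each point is 1 mouse, with the log2 CPM of the named genes on the axes and colours for the 4 diets. Saa1 and Saa2 (r = 0.665) and Reg3b and Reg3g (r = 0.601) rise together, whereas Saa1 with Saa3 and Retnlb with Ang4 scatter widely.

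The genes whose log2 CPM was most like that of Saa1 over the 20 mice were Mal, a membrane protein of apical transport (r = 0.945), Muc4, a membrane-bound mucin (r = 0.914), and Ly75, an endocytic receptor (r = 0.890). With diet means removed r was 0.911, 0.841, and 0.750. Genes like Reg3g included Slc7a11 (r = 0.887), the cystine transporter, and Grk6 (r = 0.861). Retnlb was most like Elovl7 (r = 0.915), Lmbrd2 (r = 0.912), and Spin1 (r = 0.909), and Ang4 most like Itpr2 (r = 0.843), Rarres2 (r = 0.820), and Casq2 (r = 0.811). For Saa2 the nearest was Agpat4 (r = 0.805), for Reg3b Rflna (r = 0.778), for Saa3 Sycn (r = 0.754), and for Lcn2 Uqcr11 (r = 0.735). These genes are among the highest of 15348 for each and describe only these libraries.

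Of 34 tested genes of a wider antimicrobial list, 4 rose and 1 (Zg16) fell with 10% RPS, where 1.04% of all genes passed. None passed with 5% RPS in edgeR, where 17 had an unadjusted p under 0.05, against 13.3% of all genes. Duox2, a hydrogen peroxide producing oxidase of the epithelium, rose from 51.5 ± 31.7 to 204 ± 105 CPM (SD, n = 5 each; log2 fold change 1.99, edgeR adjusted p = 0.0487). Its maturation factor Duoxa2 rose from 6.36 ± 4.56 to 41.6 ± 26.1 CPM (log2 fold change 2.72, edgeR adjusted p = 0.0347). Nos2, the inducible nitric oxide synthase, rose from 0.792 ± 0.482 to 4.42 ± 2.73 CPM (log2 fold change 2.48, edgeR adjusted p = 0.0289), and Retnla, a relative of Retnlb, from 3.01 ± 1.33 to 8.5 ± 3.29 CPM (log2 fold change 1.5, edgeR adjusted p = 0.0334). Nos2 and Duoxa2 also rose, and Zg16 fell, over the RPS trend.

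None of the 11 tested genes of a wider acute-phase list and none of 34 genes of the cytokines and signals that induce such proteins passed with 10% RPS in edgeR, where 4 and 8 of them had an unadjusted p under 0.05, against 19.5% of all genes. The median log2 fold change of these lists was -0.09 and 0.08. Il1rn, the interleukin 1 receptor antagonist, had the widest acute-phase difference, at 36.2 ± 12.9 CPM on 0% and 12.3 ± 7.79 on 10% RPS (log2 fold change -1.56, edgeR adjusted p = 0.124). Among the signals the widest was Il1rl1, the interleukin 33 receptor (log2 fold change -1.35, edgeR adjusted p = 0.160), and Ticam1, a Toll-like receptor adaptor, fell over the trend (edgeR adjusted p = 0.0445). None of 14 receptors and partners passed, the widest being Ccr6 (log2 fold change 2.17, edgeR adjusted p = 0.235), and 5 had an unadjusted p under 0.05.

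Of the cell type markers, 1 of 6 tested neutrophil genes rose with 10% RPS, where 1.04% of all genes passed and 19.5% had an unadjusted p under 0.05. This was Cd177 (log2 fold change 1.29, edgeR adjusted p = 0.0487), while Ly6g had -2.74 (adjusted p = 0.0969). Among 12 macrophage and monocyte genes Ccr2, a monocyte chemokine receptor, rose from 2.59 ± 0.730 to 6.06 ± 0.938 CPM (log2 fold change 1.23, edgeR adjusted p = 0.0235). The goblet genes Spink4 and Bcas1 fell over the trend (edgeR adjusted p = 0.0488 for each). Of 16 colonocyte genes, Slc26a3, a chloride and bicarbonate exchanger, rose (0.61, edgeR adjusted p = 0.0487), and Slc9a3 had -1.05 (adjusted p = 0.0671). At an unadjusted edgeR p under 0.05, 7 of the 16 were lower and 2 higher with 10% RPS, and the list's median log2 fold change was -0.16. Actg2, a smooth muscle actin, rose with 10% (1.28, adjusted p = 0.0358) and 5% RPS (1.53, edgeR adjusted p = 0.0425), and Synpo2 with 10% RPS (0.88, adjusted p = 0.0411). No gene passed of the 12 lymphoid follicle genes (median log2 fold change 1.75, widest Cr2 at 2.32, edgeR adjusted p = 0.338; 1 with an unadjusted p under 0.05), whose sum ran from 20.7 to 407.1 CPM on 0% and from 36.9 to 530.0 on 10% RPS. The same held for 3 Paneth cell genes (widest Lyz1 at 1.64, adjusted p = 0.226), 7 ileum genes (Apoa1 at -1.53, adjusted p = 0.144), and 3 liver and pancreas genes (Apoa2 at -0.38, adjusted p = 0.388), of which 1, 3, and 0 had an unadjusted p under 0.05.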

How the data were processed

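Reads were trimmed, mapped to GRCm39, and counted per gene by the authors in the CLC Genomics Workbench, from single-end reads of 50 bases of stranded poly(A) libraries, and the deposited table holds these raw counts. Annotation release, strand setting, and treatment of reads matching several genes are not given in the sources used here. Diets came from the sample labels, and 0 columns of other samples were left out. Names and positions came from GENCODE M39, in which 19827 of 19887 identifiers were found. Differences were tested with edgeR 4.0.16 in R 4.3.3 (filterByExpr with minimum count 10 and total 15, TMM, robust quasi-likelihood fit over all 20 mice), which left 15348 genes. Past the threshold means a fold change of 1.5 or more with a p of 0.05 or less after Benjamini-Hochberg adjustment, with no fold threshold for the trend or any difference. DESeq2 1.42.0 was an alternative. Log2 CPM used a prior count of 2, and Python 3.11.15, scipy 1.17.1, numpy 2.4.6, matplotlib 3.10.9, and pandas 2.3.3 were used for the rest. On simulated counts of 15348 genes for the 10% comparison, edgeR found 74 of 100 genes with a simulated 2-fold change, 93 of 100 with a 4-fold change, and 4 genes with none. DESeq2 found 78 and 95 of them, and 16 genes with none. In that simulation only the mice on 10% RPS carried a change, and 0 genes were called at 5% RPS. The 10 genes and all lists were chosen with earlier results of these data known. Named genes are the 10, list genes past a threshold, the widest tested gene of each list at 10% RPS, and the 1 to 3 genes most like each tested gene, apart from 1 item that is not reported here. Car1, Muc2, the defensins, Galnt12, and the neutrophil genes other than Ly6g and Cd177 were named outside this rule, after their values were seen. The labels give each library its own mouse number but no litter or cage, which could add to the spread. Total counts per mouse were between 14967798 and 42687283, so counting error is small for the abundant genes. It is large for Saa2, S100a8, and S100a9, and also for Reg3b, which had 3 counts or fewer in 3 mice. Floors cover counting error only.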

Additional observations from a re-analysis of the deposited data

Results flagged for a closer look

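In 2 of 32 groups of 5 mice the lowest mouse was farther from the others than Dixon's 95% limit, of which chance gives about 1 in 20. For Saa2 on 2% RPS, mouse 2 had 1 count (0.0348 CPM) where the others had 0.389 to 0.559 CPM, and the gap was 0.826 of the range on the log2 scale. For Retnlb on 5% RPS, mouse 4 was at 81.5 CPM where the others were at 158 to 202, with a gap of 0.730 of the range. That mouse had the highest Ang4 of all mice, at 189 CPM.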

How the results depend on the processing

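No paired analysis was possible because the labels give the mice of different diets different numbers, so no number is shared between diets. The Saa1 call at 10% RPS was lost (0 genes) with only both diets in the fit (log2 fold change 1.61, edgeR adjusted p = 0.0662) and with the fold tested against 1.5 (adjusted p = 0.751), and at 5% RPS with the fold tested against 1.5 (adjusted p = 0.558). DESeq2 gave 2 genes at 5% RPS (Saa1 and Ang4), 1 with a trend, and 2 with any difference. Over all genes DESeq2 called 368 at 10%, 241 at 5%, and 5 at 2% RPS, 739 for the trend, and 473 for any difference, where edgeR called 160, 30, 0, 170, and 14, and with 1 mouse left out edgeR called 0 to 674 for the trend and 3 to 103 for any difference. With only both diets in the fit edgeR called 98 at 10% and 65 at 5% RPS, with the fold tested against 1.5 it called 0 at both, with no fold threshold 285 at 10%, with the rank of the dose 539 for the trend, and with no filter on low counts 103 for the trend. The trend also counted 1 gene (Saa1) without robust empirical Bayes (edgeR adjusted p = 0.0473) and with the rank of the dose (adjusted p = 0.0131). With upper-quartile factors the Saa3 slope changed sign, from -0.00072 to 0.00204. Leaving out each mouse in turn, the count was 0 to 1 at 10% RPS, 0 to 1 at 5% RPS, 0 to 1 for the trend (1 without mouse 3 or 5 of 2% RPS or mouse 4 of 10% RPS), and 0 to 1 for any difference (1 without mouse 5 of 2% or mouse 4 of 10% RPS). The 5% call was lost without mouse 2, 3, 4, or 5 of 0%, mouse 1 or 2 of 2%, mouse 2, 3, 4, or 5 of 5%, or mouse 5 of 10% RPS (edgeR adjusted p = 0.0518 to 0.136). In 1 of 10 such repeats, without mouse 3 of 10% RPS, the exact permutation p of S100a8 at 10% RPS was 0.0476. The S100a8 difference from 0% RPS was -0.102 to -0.019 CPM over the mice left out. The correlation of S100a8 and S100a9 was 0.263 to 0.533, and of Reg3g and Lcn2 -0.204 to 0.0116. Fold changes that changed sign, on the log2 scale, were Saa2 at 2% (-0.77 to 0.24), Saa3 at 10% (-0.15 to 0.046) and 5% (-0.20 to 0.012), Reg3b at 10% (-0.36 to 1.39) and 2% (-1.42 to 2.06), Reg3g at 2% (-0.48 to 0.44), Ang4 at 10% (-0.013 to 0.99) and 2% (-0.17 to 0.87), and Lcn2 at 10% RPS (-0.16 to 0.076). Slopes that changed sign were Saa3 (-0.0095 to 0.0062), Reg3b (-0.077 to 0.013), and Lcn2 (-0.011 to 0.0098). The cause was not tested.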
